A study of Mus musculus with 2 samples.

Results

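The enzymes of one-carbon, purine, pyrimidine and polyamine metabolism were examined in primordial germ cells (PGCs) of the mouse, the founders of the germline, at embryonic day 9.5 (E9.5). The list named 50 genes chosen for the reaction that each protein carries out, and 49 of them were among the 18877 genes measured. Adssl1, the muscle type adenylosuccinate synthase, had no row and was not analysed here. RNA-seq was performed on 2 samples, replicate 1 and replicate 2, which form 1 group: untreated PGCs taken from C57BL6 embryos by means of an SSEA1 antibody, SSEA1 being a carbohydrate antigen of the cell surface. According to the methods the embryos were female. Sorting is given there as flow cytometry with antibodies against CD61 and SSEA1, or magnetic sorting with SSEA1 alone, without saying which was used for these samples. The SSEA1 antibody enriches PGCs but does not mark them alone, and the number of embryos behind each sample is not given in the sources used here. The study calls the samples biological replicates, but whether they came from separate litters is not stated in the sources used here, so the spread between them may be partly technical.

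One-carbon metabolism moves carbon units from serine and glycine onto folate, and from there into purine rings, thymidylate and methionine. Purine nucleotides are either built stepwise on PRPP (phosphoribosyl pyrophosphate) to IMP, from which AMP and GMP arise, or salvaged from free bases. Methionine is activated to S-adenosylmethionine, the methyl donor for DNA and histone methylation and, once decarboxylated, the source of polyamines. Proliferating cells are known to draw heavily on these routes, and PGCs at this stage are migrating and dividing while they erase DNA methylation.

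Levels are given as TPM (a relative transcript abundance, corrected for the length of the gene and for the size of the library), as deposited by the authors. Reads were recovered from the TPM values and gene lengths, at 15918783 in replicate 1 and 5461075 in replicate 2, so replicate 1 was 2.91 times deeper. For values per coding base, all recovered reads of a gene, also those outside its coding sequence, were divided by its coding length. Reads within coding sequence could not be counted apart. Intervals are exact 95% Poisson intervals of these reads that account for counting error alone, because the libraries carry no stated molecular identifiers and copies of 1 molecule may be counted repeatedly. All 10 PGC markers examined were at 1 TPM or more in both replicates, led by Dppa3 at 5044 ± 44.1 TPM and Nanos3 at 463 ± 14.3 (mean ± SD, n = 2). Globins of erythroid cells were also present, led by Hba-x at 2198 ± 188 TPM and Hbb-y at 976 ± 69.8, and the 5 erythroid markers with a row summed to 3537 TPM in replicate 1 and 3331 in replicate 2. The 4 macrophage markers summed to 19.4 and 9.53 TPM, led by Fcer1g (8.56 ± 3.39) and Csf1r (3.15 ± 1.6), with C1qb at 1.16 and 0. Endothelial markers summed to 10.4 and 10.8 TPM, led by Pecam1 (9.11 ± 1.25) and Tek (0.965 ± 0.467). Mesenchyme markers summed to 2.37 and 3.95, led by Col3a1 (1.23 ± 0.241) and Twist1 (1.1 ± 0.27), and gonadal epithelium markers to 2.51 and 2.2, led by Wt1 (1.14 ± 0.0971) and Lhx9 (1.02 ± 0.145). Of the gut endoderm markers, Epcam, which PGCs are also known to express, was at 149 ± 15.7 TPM, whereas Foxa2 was at 0.252 ± 0.357 and Foxa1 was at 0 in both. The part of other cell types in the enzyme levels below was not tested.

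Most of the enzymes were expressed well above the typical gene. A level of at least 1 TPM in both replicates was reached by 46 of 49 enzymes (93.9%), compared with 60% of all genes in the table. The other 3 were Atic, Impdh1 and Prps2. The median level over the enzymes was 24.2 TPM in replicate 1 and 21.2 in replicate 2, compared with 2.71 and 2.61 over all genes. On the log2(TPM + 1) scale, which understates differences between low genes, the enzyme median was 4.56 ± 0.129 (SD of both replicates), against 1.87 ± 0.0282 for all genes and 2.25 ± 0.0528 for protein-coding genes. The top 10% of all genes, which began at a mean of 52.1 TPM, held 9 of 49 enzymes (18.4%, against the 10% that the cut fixes): Nme1, Nme2, Hprt, Dut, Paics, Gcsh, Impdh2, Amt and Shmt1. By mean level, 6 enzymes were at 100 TPM or more, 30 between 10 and 100, 10 between 1 and 10, and 3 under 1. Together the enzymes held 0.37% of the TPM of replicate 1 and 0.348% of replicate 2, of which the nucleotide kinases Nme1 and Nme2 and the salvage enzyme Hprt were the 3 largest. The sum leaves out Gm20390 (2844 and 2749 TPM), a gene model whose exonic bases all lie in exons of Nme1 or Nme2. These levels describe where the enzymes stood among all genes; no other tissue or stage was compared.

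**Figure D1:**
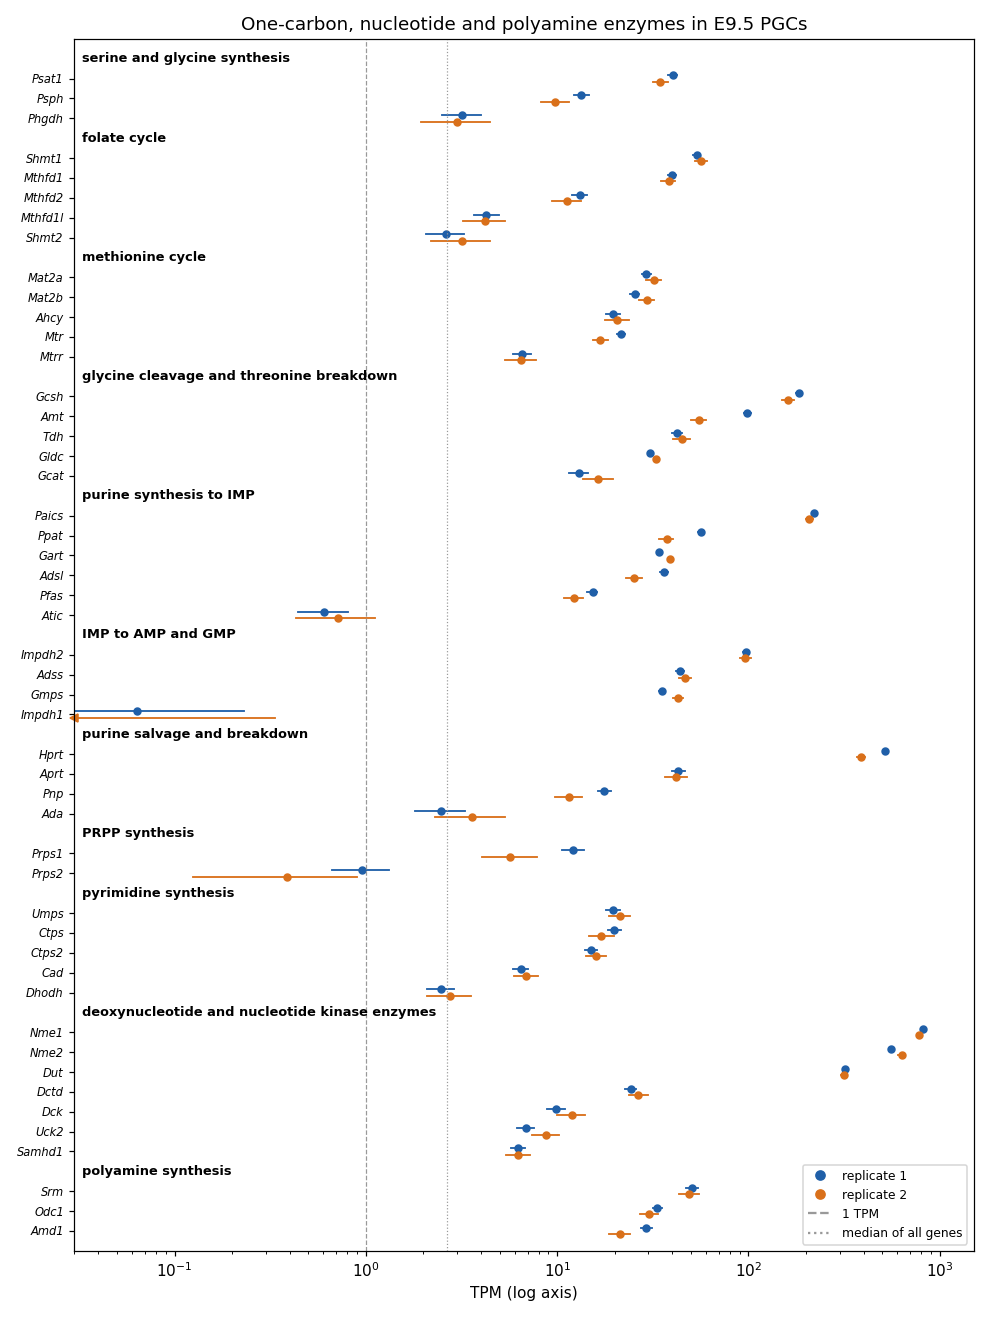
TPM (log axis) of the 49 enzymes, grouped by pathway and ordered by mean level within each group; points are the 2 replicates, lines the exact 95% Poisson intervals (none for Gldc and Gart), and the arrowhead marks Impdh1 at 0 in replicate 2. Nme1, Nme2 and Hprt lie farthest to the right and Impdh1, Atic and Prps2 lie below 1 TPM, while most replicate pairs nearly coincide.

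The pathway groups differed in level. By median log2(TPM + 1), glycine cleavage and threonine breakdown (5.48 ± 0.0567, 5 genes), the steps from IMP to AMP and GMP (5.42 ± 0.124, 4 genes), purine synthesis to IMP (5.08 ± 0.133, 6 genes) and polyamine synthesis (5.04 ± 0.097, 3 genes) were highest. Deoxynucleotide and kinase enzymes (4.72 ± 0.0893, 7 genes), purine salvage (4.68 ± 0.217, 4 genes), the methionine cycle (4.46 ± 0.0487, 5 genes) and pyrimidine synthesis (4.04 ± 0.0601, 5 genes) followed. The folate cycle (3.72 ± 0.144, 5 genes) and serine synthesis (3.64 ± 0.3, 3 genes) were lower and did not differ beyond their spread, and PRPP synthesis (1.97 ± 0.516, 2 genes) was lowest. Glycine cleavage and the steps from IMP did not differ beyond their spread either, nor did purine and polyamine synthesis, the deoxynucleotide and salvage groups, or salvage and the methionine cycle. Medians hide the range within a group: purine synthesis ran from Paics at 214 ± 8.34 TPM to Atic at 0.659 ± 0.0747. By compartment, the 9 mitochondrial enzymes had a median of 3.97 ± 0.217 and the 38 cytosolic ones 4.64 ± 0.0677.

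**Figure D2:**
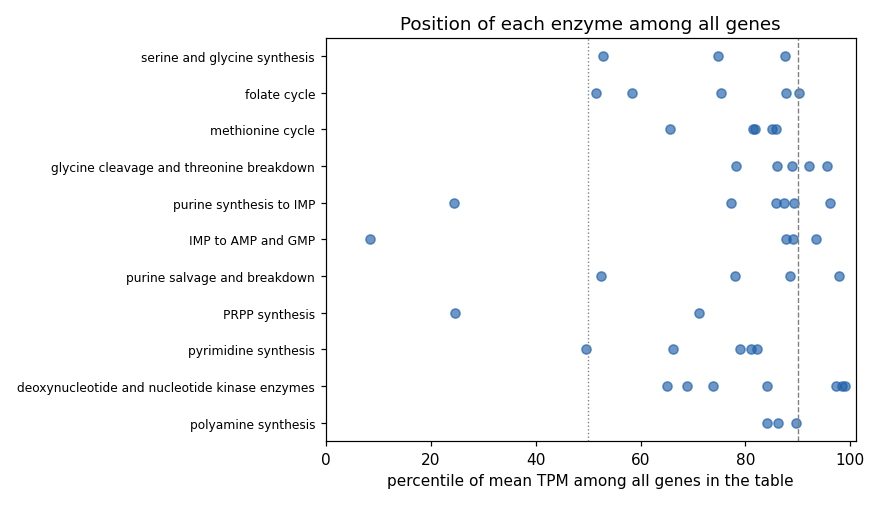
Percentile of each enzyme's mean TPM among all 18877 genes, with 1 point per enzyme and 1 row per pathway group; the dotted line is the median gene and the dashed line the start of the top 10%. The glycine cleavage, polyamine and methionine cycle enzymes all lie right of the median, whereas Impdh1, Atic, Prps2 and, just under the line, Dhodh lie left of it.

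Serine and glycine synthesis was uneven along its 3 steps. Phgdh, which takes carbon out of glycolysis in the first and rate-limiting step of serine synthesis, was at 3.17 TPM in replicate 1 and 3.01 in replicate 2 (75 and 25 reads). Psat1, the transaminase of the next step, was at 40.1 and 34.6 TPM. Psph, the phosphatase that releases serine, was at 13.4 and 9.74 TPM. In both replicates the order was therefore Psat1, Psph, Phgdh, with no overlap of the intervals of neighbouring genes. Phgdh shared 47.8% of its transcript sequence, counted in 50-base words, with 23 other genes, of which Gm7901 (0.461 and 0 TPM) shared the most at 38.3%, and how reads that fit several places were counted is not stated. Psph overlapped the opposite-strand gene Cct6a by 452 exonic bases, and whether strand was used in counting is not stated.

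In the folate cycle the cytosolic enzymes stood above their mitochondrial counterparts. Serine hydroxymethyltransferase, which passes a carbon from serine to tetrahydrofolate and leaves glycine, has a cytosolic form, Shmt1, and a mitochondrial form, Shmt2. Shmt1 (chr11:60788104-60811718, GRCm38) was at 53.5 and 56.5 TPM, from 1976 and 734 reads. Shmt2 (chr10:127517123-127522444) was at 2.61 and 3.17 TPM, from 77 and 33 reads. The ratio of Shmt1 to Shmt2 was 20.5 in replicate 1 (interval 16.4 to 26.1) and 17.8 in replicate 2 (12.6 to 26.1), and per coding base it was 27.1 and 23.5. Neither gene had much sequence in common with others, at 3.37% of words for Shmt1 and 1.25% for Shmt2. Mthfd1, the cytosolic enzyme of 3 activities that interconverts folate carbon units, was at 40 and 38.2 TPM. Mthfd1l, its mitochondrial relative that releases formate, was at 4.27 and 4.18 TPM, so that Mthfd1 was 9.36 and 9.13 times higher. Mthfd2, the mitochondrial dehydrogenase that precedes Mthfd1l, was at 13.1 and 11.2 TPM and thus 3.07 and 2.69 times above Mthfd1l by TPM, or 6 and 5.26 times per coding base. Shmt2 and Mthfd1l, neighbours in the order of levels, had overlapping intervals in replicate 2.

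The regions before the start sites of both serine hydroxymethyltransferase genes are shown because these genes had the most unequal levels of the pairs that divide a reaction between compartments. The 150 bases before the RefSeq start (GRCm38.p6) are given 5′ to 3′ on the gene's strand, with GC boxes (GGGCGG on either strand, a binding motif of Sp family factors) in capitals.
Shmt1, chr11:60811266-60811415, minus strand: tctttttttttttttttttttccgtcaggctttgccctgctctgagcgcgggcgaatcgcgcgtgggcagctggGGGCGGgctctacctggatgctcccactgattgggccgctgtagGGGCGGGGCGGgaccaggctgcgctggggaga
Shmt2, chr10:127522445-127522594, minus strand: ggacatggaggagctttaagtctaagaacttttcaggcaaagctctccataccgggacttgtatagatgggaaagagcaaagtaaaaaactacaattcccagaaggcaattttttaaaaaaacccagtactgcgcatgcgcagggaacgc
The Shmt1 stretch held 3 GC boxes, a pair of which overlap by 1 base, and the Shmt2 stretch held 0. These stretches do not have like positions in GENCODE. That of Shmt1 lies inside its gene model but outside annotated exons, whereas that of Shmt2 lies just beyond its model. Windows from 250 bases before to 50 after a start were found for 45 of the 49 enzymes, with 55 windows in all. A GC box was present in 76.4% of these windows, in 61.1% of the windows of all genes at a mean of at least 1 TPM, and in 35.7% of all 32851 mouse windows. The CCAAT motif, on either strand, was in 47.3%, 39.6% and 37.4%. The E-box CACGTG was in 10.9%, 10.4% and 7.15%, and among the enzymes in those of Atic, Gcat, Impdh2, Nme1 and Paics. TGATGCAA, a form of the element bound by the amino acid response factor ATF4, was in 0% of the enzyme windows, 0.635% of those of expressed genes and 0.895% of all. A match is a match of letters in this window and shows neither binding nor its absence.

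In the methionine cycle, levels lay within a narrow range except for 1 enzyme. Mtr, methionine synthase, which moves the folate methyl group to homocysteine, was at 21.5 and 16.8 TPM. Mtrr, the reductase that keeps Mtr active, was at 6.56 and 6.44 TPM, and the ratio of Mtr to Mtrr was 3.28 and 2.61. Mat2a, the catalytic subunit of the enzyme that makes S-adenosylmethionine, was at 29.2 and 32.1 TPM. Mat2b, its regulatory subunit, was at 25.4 and 29.4 TPM, so the subunits were within 1.15-fold and 1.09-fold of each other in TPM. The order turned when all reads of each gene were divided by coding length in place of exon length (0.822 and 0.781). Ahcy, which hydrolyses the by-product S-adenosylhomocysteine, was at 19.6 and 20.5 TPM. Ahcy shared 68.7% of its words with other genes, chiefly with the near-identical Gm4737 (66%), which was itself listed at 43.3 and 39.6 TPM. The reads of these copies cannot be told apart with certainty, and the Ahcy level is uncertain for that reason.

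The glycine cleavage system and threonine breakdown, both mitochondrial, were among the most abundant groups. Gcsh, the H protein that carries the glycine-derived group between subunits, was at 184 and 161 TPM. Amt, the T protein that hands the carbon to folate, was at 98.8 and 55 TPM, from 2288 and 448 reads. Gldc, the P protein that decarboxylates glycine, was at 30.7 and 32.9 TPM. The order Gcsh, Amt, Gldc was the same in both replicates, with Gldc at 0.167 and 0.205 of the Gcsh level. Amt was at 0.536 of the Gcsh level in replicate 1 (0.507 to 0.567) and 0.342 in replicate 2 (0.304 to 0.384), intervals that did not overlap, and per coding base these ratios were 0.349 and 0.223. Tdh, threonine dehydrogenase, on which mouse embryonic stem cells are known to depend for glycine, was at 42.4 and 44.8 TPM. Gcat, which completes the conversion of threonine to glycine, was at 13 and 16.4 TPM, and Tdh was 3.27 and 2.73 times higher. Gcat has 2 overlapping gene models in the annotation, and the value was matched to the longer one because only that length gave whole reads.

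Purine synthesis to IMP was uneven along its steps. Ppat, which commits PRPP to the purine route, was at 56.5 and 37.3 TPM (2373 and 551 reads). Gart, a protein of 3 activities in the early steps, was at 34 and 38.7 TPM. It overlaps the opposite-strand gene Gm15964 (24.6 and 25.7 TPM) by 1014 exonic bases. Pfas, which carries out the fourth step, was at 15.3 and 12.2 TPM. Ppat, Gart and Pfas thus lay between 12.2 and 56.5 TPM. Paics, the enzyme of 2 middle steps, was at 220 and 208 TPM and was the most abundant enzyme of the route. Adsl, which acts both here and on the way to AMP, was at 36.2 and 25.2 TPM. Atic, which adds the last folate-derived carbon and closes the ring to IMP, was at 0.606 TPM (0.444 to 0.808, 46 reads) and 0.712 TPM (0.429 to 1.11, 19 reads). Atic was therefore the lowest enzyme of the route in both replicates, with its highest interval bound far below the 12.2 TPM of Pfas. The gene model of Atic spans 7985 exonic bases, of which 1776 are coding, and its RPKM over the coding length was 1.82 and 2.19, against 19.7 and 16.2 for Pfas and 336 and 326 for Paics. Only 0.297% of the words of Atic occurred in another gene.

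The 150 bases before the start of Atic are shown because Atic was low where the rest of its route was not, with GC boxes and the E-box in capitals.
Atic, chr1:71557006-71557155, plus strand: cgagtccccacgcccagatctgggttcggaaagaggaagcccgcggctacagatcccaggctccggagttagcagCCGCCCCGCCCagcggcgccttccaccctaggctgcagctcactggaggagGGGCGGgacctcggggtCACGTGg
This stretch held 3 GC boxes, a pair of which overlap by 1 base, and an E-box that starts 7 bases before the start site. The last 6 bases of the stretch lie in an annotated exon. The E-box was thus present before a gene measured at under 1 TPM, as it was in the windows of the abundant Paics and Impdh2. Ppat and Paics are transcribed head to head on chromosome 5 and overlap by 272 exonic bases on opposite strands. The ratio of Ppat to Paics was 0.257 (0.245 to 0.269) in replicate 1 and 0.179 (0.163 to 0.197) in replicate 2, so these neighbours differed in level and the ratio also differed between replicates beyond counting error.

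From IMP the routes to AMP and GMP were both expressed. Adss, which starts the branch to AMP, was at 44 and 46.7 TPM. Impdh2, the IMP dehydrogenase of proliferating cells and the first step to GMP, was at 96.6 and 96.3 TPM, from 2827 and 991 reads. Gmps, which completes GMP, was at 35.3 and 42.7 TPM. The ratio of Adss to Impdh2 was 0.455 and 0.484 by TPM, but 0.792 and 0.843 per coding base. Impdh1, the other IMP dehydrogenase, was at 0.0639 TPM in replicate 1, from 2 reads, and at 0 in replicate 2, where 3 reads would have given 0.272 TPM. The ratio of Impdh1 to Impdh2 in replicate 1 was 6.61e-04 (8.00e-05 to 0.00239), and in replicate 2 Impdh2 was at least 354-fold higher than the level that 3 reads of Impdh1 would give. Impdh2 shared 39.3% of its words with the copy Impdh2-ps, listed at 44.3 and 43.4 TPM, so the Impdh2 level depends on how reads were divided between them; Impdh1 shared 0%.

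Salvage of purine bases was dominated by Hprt. Hprt (chrX:52988137-53021659), which returns hypoxanthine and guanine to nucleotides, was at 520 and 386 TPM, from 6374 and 1662 reads, and ranked 400 of 18877 genes by mean. Aprt, the matching enzyme for adenine, was at 42.9 and 41.7 TPM. The ratio of Hprt to Aprt was 12.1 (11.2 to 13.2) and 9.25 (8.05 to 10.7). Pnp, which splits purine nucleosides into base and sugar, was at 17.6 and 11.5 TPM, and overlaps Gm49342 (46.6 and 20.7 TPM) on the same strand by 718 exonic bases. Ada, which deaminates adenosine, was at 2.47 and 3.59 TPM from 47 and 24 reads. Hprt shared 0% of its words with other genes.

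PRPP, the substrate of Ppat, Hprt, Aprt and Umps, is made by the Prps enzymes, both X-linked. Prps1 (chrX:140456613-140476140) was at 12.1 TPM in replicate 1 (10.6 to 13.8, 229 reads) and 5.7 in replicate 2 (4.04 to 7.83, 38 reads). Prps2 was at 0.951 TPM (0.662 to 1.32, 35 reads) and 0.386 (0.125 to 0.901, 5 reads). Prps1 was thus 12.7 times (8.88 to 18.7) and 14.8 times (5.8 to 48.1) above Prps2, and by coding length 6.54 and 7.6 times. On the log2(TPM + 1) scale Prps1 differed most between replicates of the 49 enzymes, but by the ratio of TPM itself Prps2 differed more. The replicate intervals of Prps1 did not overlap, whereas those of Prps2, from few reads, did. The starts of Hprt and Prps1 are shown because these X-linked genes, a producer and a user of PRPP, differed widely in level. GC boxes are in capitals.
Hprt, chrX:52987928-52988077, plus strand: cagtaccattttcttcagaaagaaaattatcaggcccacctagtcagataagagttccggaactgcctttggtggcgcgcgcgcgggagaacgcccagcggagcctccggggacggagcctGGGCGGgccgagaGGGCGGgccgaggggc
Prps1, chrX:140456453-140456602, plus strand: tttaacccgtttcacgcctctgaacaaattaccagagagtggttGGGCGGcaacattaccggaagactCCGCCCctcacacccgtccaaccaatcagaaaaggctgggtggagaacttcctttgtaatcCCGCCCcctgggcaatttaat
Both stretches held GC boxes, 2 before Hprt and 3 before Prps1, and no base of either lies in an annotated exon. Of the 4 X-linked enzymes, Hprt, Prps1 and Prps2 were lower in replicate 2 and Ctps2 was not (15 and 16 TPM). Among all 49 enzymes 27 were lower in replicate 2 (55.1%), and 4 genes are too few to set X-linked enzymes apart.

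Pyrimidine synthesis was moderate at most steps. Cad, the protein of the first 3 steps, was at 6.45 and 6.87 TPM. Dhodh, the mitochondrial step that links the route to respiration, was at 2.46 and 2.74 TPM and was just below the median gene. Umps, which makes UMP, was at 19.6 and 21.2 TPM. For all 3 genes the intervals of the replicates overlapped. Ctps, CTP synthase, was at 19.9 and 17 TPM, and its isoenzyme Ctps2 was at 15 and 16 TPM. The ratio of Ctps to Ctps2 was 1.33 (1.19 to 1.48) and 1.07 (0.879 to 1.29), and per coding base 1.01 and 0.816, so the CTP synthases were not separated consistently.

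Enzymes that supply deoxynucleotides and phosphorylate nucleotides held the highest values of the list. Dut, which removes dUTP and so keeps uracil out of DNA, was at 321 and 316 TPM. Dctd, which deaminates dCMP toward thymidylate, was at 24.2 and 26.5 TPM. Samhd1, which breaks down deoxynucleoside triphosphates, was at 6.23 and 6.24 TPM. The supply and clearing enzymes of this group thus differed widely in abundance while the replicate intervals of each overlapped. Dck, the deoxycytidine kinase of salvage, was at 9.9 and 11.9 TPM, and Uck2, the uridine and cytidine kinase, was at 6.85 and 8.7 TPM. Nme1 and Nme2, nucleoside diphosphate kinases that make triphosphates, were at 816 and 778 TPM and at 557 and 632 TPM. These genes adjoin each other on chromosome 11, and another gene model, Gm20390, reads through both. All 991 exonic bases of Gm20390 lie in exons of Nme1 (418) or Nme2 (573), yet it was listed at 2844 and 2749 TPM, from 26793 and 9109 reads, beside 32125 and 11172 reads for Nme1 and Nme2 together. How reads in the shared bases were assigned is not stated, so the levels of Nme1 and Nme2 are uncertain, and their ratio moved from 1.46 and 1.23 by TPM to 3.73 and 3.14 per coding base.

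The polyamine enzymes lay within a narrow range. Odc1, ornithine decarboxylase, which starts the route, was at 33.4 and 30.3 TPM. Amd1, which decarboxylates S-adenosylmethionine, was at 29.3 and 21.2 TPM. Srm, spermidine synthase, was at 50.9 and 48.8 TPM, and the ratio of Odc1 to Srm was 0.656 and 0.621. Amd1 shared 78.1% of its words with other genes, mainly Amd2 (76.7%), which was listed at 1.7 and 2.14 TPM. Odc1 shared 24.3% of its words with 16 other genes, of which Gm7993 shared the most at 11.7%.

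**Figure D3:**
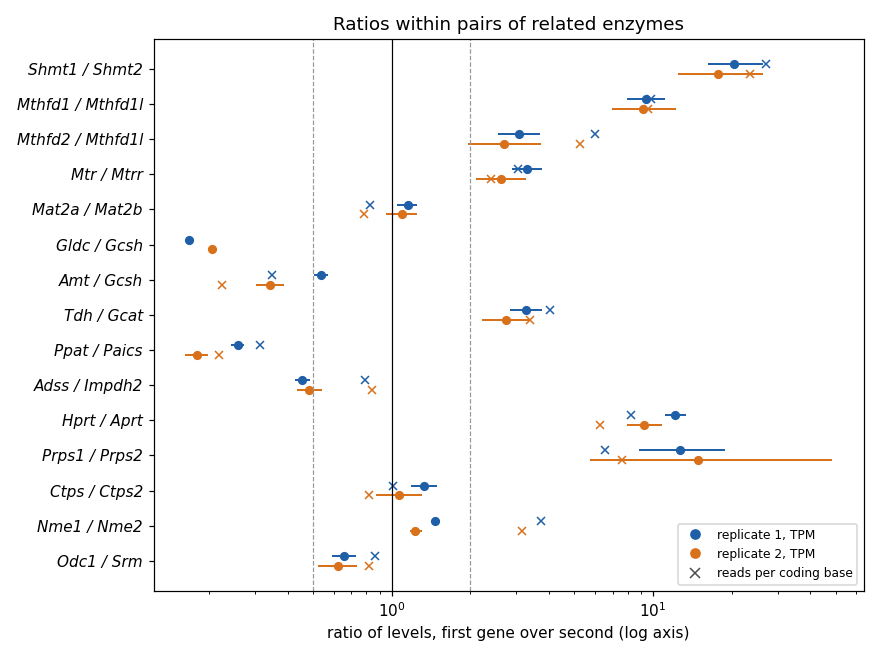
Ratio of the first gene's level to the second's for 15 pairs of related enzymes (log axis). Points are TPM ratios per replicate and lines are exact binomial 95% intervals of the reads. Crosses are the same ratio with all reads of a gene divided by its coding length, and the dashed lines mark 2-fold. Shmt1/Shmt2, Prps1/Prps2, Hprt/Aprt and Mthfd1/Mthfd1l lie far right of 1 by either measure, whereas Mat2a/Mat2b and Ctps/Ctps2 lie near it.

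Of the 16 pairs of isoenzymes, subunits, neighbours or consecutive steps in which both genes had a row, 11 differed more than 2-fold in both replicates on the log2(TPM + 1) scale. The share among pairs of unrelated genes was not computed, so this count does not set related enzymes apart. The difference was 3.85 ± 0.0948 for Shmt1 over Shmt2, 2.94 ± 0.0279 for Mthfd1 over Mthfd1l and 3.38 ± 0.277 for Hprt over Aprt. Which pairs passed depended on the length used: per coding base Adss with Impdh2 no longer passed, whereas Amt with Gcsh and Nme1 with Nme2 did. Gldc with Gcsh had no value per coding base, because the reads of Gldc were not recovered. By TPM, the 5 pairs that did not pass were Mat2a with Mat2b, Amt with Gcsh, Ctps with Ctps2, Nme1 with Nme2, and Odc1 with Srm. Across the 49 enzymes, level and summed exon length had a Spearman correlation of -0.358, against -0.14 over 12827 genes at a mean of at least 1 TPM; the points share both libraries, and length enters TPM itself.

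The enzymes were similar in both replicates. Replicate 2 minus replicate 1 had a median of -0.02 on the log2 scale over the enzymes and -0.01 over all genes, with 27 enzymes lower and 22 higher in replicate 2. No enzyme (0 of 49) differed by more than 2-fold on the log2(TPM + 1) scale, compared with 10.2% of all genes, and 3 differed by more than 1.5-fold (Amt, Ppat and Prps1), compared with 22.7%. The differences ran from -0.97 for Prps1 to 0.40 for Ada and had an SD of 0.297, against 0.573 for the 3325 genes between 8.9 and 43.6 TPM, the interquartile range of the enzymes' levels. The difference was -0.83 for Amt, -0.59 for Ppat and -0.57 for Pnp, and the ratio of replicate 2 to replicate 1 in TPM + 1 was 0.705 for Adsl, 0.733 for Amd1 and 0.742 for Hprt. Against counting error alone, the Poisson intervals of the replicates were compared for the 46 enzymes, among 13942 genes, that had enough reads. They were apart and higher in replicate 1 for 13 of these enzymes (28.3%, against 18.3% of the 13942 genes): Adsl, Amd1, Amt, Gcsh, Hprt, Mtr, Nme1, Pfas, Pnp, Ppat, Prps1, Psat1 and Psph. They were apart and higher in replicate 2 for 3 (6.52%, against 11.1%): Gmps, Mat2b and Nme2. Intervals narrow as reads rise, and the enzymes had a median of 774 and 252 reads. The summed erythroid, macrophage, gut endoderm and gonadal epithelium markers were also lower in replicate 2, whereas the PGC, endothelial and mesenchyme sums were higher. Members of a list did not all follow its sum. Hbb-y was higher in replicate 2 (927 and 1025 TPM), and Nanos3 (473 and 453) and Dazl (127 and 114) were lower. The PGC sums were close (5802 and 5865 TPM), and the gut endoderm sum was nearly all Epcam (160 and 138 TPM). The sums therefore do not show a change in cell composition. Whether differences in the markers or the lower depth bear on the differences of the enzymes was not tested. With 1 group of 2 samples no test between conditions was possible.

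**Figure D4:**
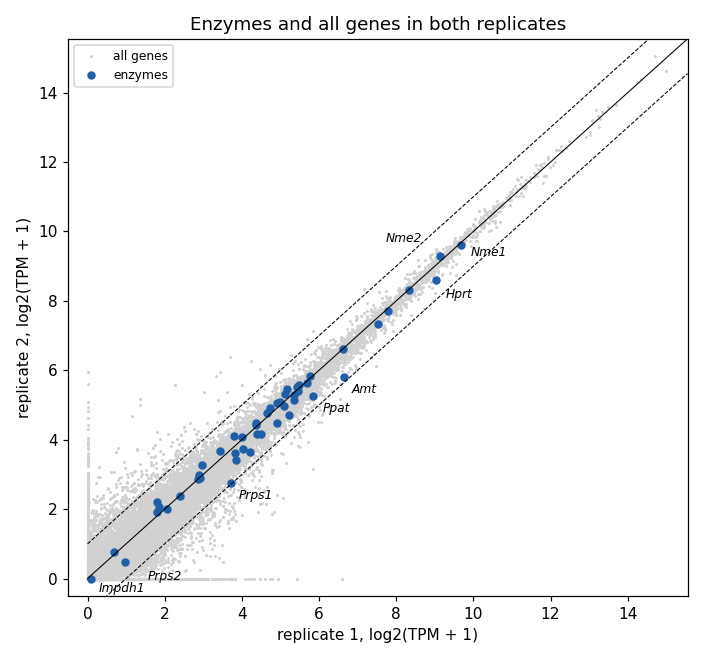
Log2(TPM + 1) of replicate 2 against replicate 1 for all 18877 genes (grey) and the 49 enzymes (blue); the solid line marks equal levels and the dashed lines a 2-fold difference. The 49 enzymes all lie between the dashed lines, with Prps1 closest to the lower one.

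Genes of the same routes outside the list were measured for comparison. Of 80 such genes, 66 had a row, 49 of these were at 1 TPM or more in both replicates (60% of all genes were), and 9 were in the top 10% of all genes. Their median log2 level was 3.14 ± 0.149. The 4 highest were Dctpp1, which hydrolyses dCTP and modified forms of it (1450 and 1596 TPM), Apip, of methionine salvage (227 and 209), Oaz1, the antizyme that restrains Odc1 (222 and 199), and Dtymk, thymidylate kinase (208 and 195). The 4 lowest were Uprt, at 0 in both, Uckl1 (0.0455 and 0.194 TPM), Sdsl (0.141 and 0.2) and Mthfd2l, a mitochondrial relative of Mthfd2 (0.776 and 0.045). On the log2(TPM + 1) scale, 4 differed more than 2-fold between replicates, compared with 10.2% of all genes: Adi1 (9.87 and 2.22 TPM), Mri1 (5.21 and 2.1), Slc19a1 (0.453 and 2.19) and Cda (0 and 1.16, from 0 and 4 reads). Genes of thymidylate and deoxynucleotide synthesis, chosen after their values were seen, were Rrm2, a ribonucleotide reductase subunit (151 and 156 TPM), its partner Rrm1 (25.4 and 22.1), Tyms, thymidylate synthase (114 and 102), and Tk1, the salvage thymidine kinase (7.49 and 6.16). The transcript of Tyms thus stood above that of Tk1 in both replicates.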

How the data were processed

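RNA-seq of 2 samples of E9.5 PGCs was analysed. The methods state that the authors aligned clean reads to mm10 with Hisat2 and counted them per gene with featureCounts, and the authors deposited 1 TPM value per gene and sample. The submitters' processing notes also name Bowtie2, RSEM, DESeq2 and R 3.4.2 without a role. Versions, annotation, strand use and the handling of reads that fit several genes are not given in the sources used here. The methods describe Smart-seq2 cDNA whereas the labels name another library kit, so the chemistry is uncertain.

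Symbols were matched to GENCODE M21 (18748 to 1 gene identifier, 27 more by whole reads, 102 unmatched). TPM multiplied by summed exon length gave whole multiples of 1 read for 96.7% and 95.8% of low values (within 0.02, against 4% by chance). Reads were recovered in this way for 47 enzymes but not for Gldc and Gart, whose values did not give whole reads with these lengths. The enzymes had 92525 reads in replicate 1 and 30586 in replicate 2. Values were compared as log2(TPM + 1), pair ratios were given exact binomial intervals, a count of 0 was limited at 3 reads, and replicate intervals were compared for genes of at least 10 reads. Sequence shared between genes was counted as 50-base words of GENCODE transcripts, and start regions and motifs were read from RefSeq windows on GRCm38.p6. Read recovery was tested on data simulated with the same gene lengths, which cannot show whether the authors used these lengths.

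The enzymes, lists, pairs and comparisons were chosen with earlier results of these data known. Each enzyme with a row was named, and of the other pathway genes the 4 highest and 4 lowest, and the 2 highest of each marker list. Values of some other pathway genes are not reported here. Alternatives were a pseudocount of 0.1, filters and thresholds on TPM, other scalings, reads per coding length and leaving out each replicate. Those that used shared sequence, and the rescaled interval count, were chosen after seeing the data. Python 3.11.15, numpy 2.4.6, pandas 2.3.3, scipy 1.17.1 and matplotlib 3.10.9 were used.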

Additional observations from a re-analysis of the deposited data

How the results depend on the processing

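Of 125 alternative values for 35 results, 100 stayed within the replicate spread (or within 1.5 times, for counts), 23 moved further and 2 changed sign. For levels, pairs and groups, leaving out 1 of the 2 replicates cannot move a value past the replicate spread unless its sign changes. Those alternatives were therefore counted as kept by construction. The enzyme median of 4.56 became 4.78 for enzymes at a mean of at least 1 TPM, 4.77 when TPM was rescaled without genes under 200 exonic bases, and 4.28 over the 37 enzymes that shared under 10% of their words, an alternative chosen after seeing the data. The count over 2-fold between replicates became 2 with a pseudocount of 0.1 (Prps1 and Prps2, against 23.7% of all genes) and 3 at a threshold of 1.5-fold. Per coding length, the log2 difference became -0.32 for Mat2a minus Mat2b and -0.13 for Ctps minus Ctps2; the choice of length alone was changed. Without replicate 1 the PRPP median was 1.61, below the 1.85 of all genes. Of 63 alternative pair values 15 moved without changing sign, and of 33 group values 3 did. Both totals include the values from leaving out a replicate, which could not move. No paired analysis was possible because the data hold 1 group. Genes with few reads, such as Impdh1 and Prps2, are limited by depth.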
